A study of Mus musculus with 6 samples.

Results

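The renin-angiotensin and kinin system was described through 9 genes, Ren1, Agt, Agtr1a, Agtr1b, Agtr2, Ace, Bdkrb1, Bdkrb2 and Atp6ap2, which are 9 of the 27962 gene names on the array. They were taken by name from the array design, with every probe of each, and this gave 13 probes: 3 for Ace, 2 each for Ren1 and Agtr1a, and 1 for each of the others. All 13 passed the filter on dim probes and were tested. None was saturated or marked as an outlier on any array, and each was well above background on all 6 arrays in both channels, except for 1 Ace probe that was so on 5 of 6 in the Nullscript-labelled channel.

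The RNA came from metanephroi, the embryonic kidney rudiments, of CD1 mice at E13.5. They were grown on filters in medium with serum and exposed to either drug at 2.0 µg/ml for 6 hours, with the members of a kidney pair receiving different drugs. Scriptaid is a hydroxamic acid inhibitor of histone deacetylases, the enzymes that take acetyl groups off histones, and Nullscript is a structurally related compound used as its inactive control. No untreated kidneys were analysed here. Both RNAs of a replicate shared an array and were labelled with Cy3 and Cy5, and each of 3 biological replicates was hybridised once in each dye orientation, giving 6 arrays. The series text mentions a dye swap on 2 of 4 arrays, whereas the dye fields of the 6 arrays give 3 per orientation and were used. How many embryos or litters went into a replicate is not stated in the labels, so the p-values measure the spread between these samples.

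Renin, made by Ren1, cuts angiotensinogen, the product of Agt, to angiotensin I, which angiotensin-converting enzyme, made by Ace, trims to angiotensin II. Angiotensin II acts through AT1 receptors, which mice make from the separate genes Agtr1a and Agtr1b, and through the AT2 receptor of Agtr2, which is abundant in embryonic mesenchyme and often opposes AT1 signals. Ace also destroys bradykinin, the ligand of the B2 receptor of Bdkrb2 and, through its breakdown products, of the inducible B1 receptor of Bdkrb1. In the embryonic kidney the system takes part in the branching of the ureteric bud and in the growth of renal vessels, and its loss leads to malformed papillae.

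Agtr2 differed most between the drugs among the 9 genes, with 1.92-fold more transcript in the Scriptaid-labelled channel. The first probe of Ren1 was 1.23-fold higher in the same channel. The first probe of Agtr1a was 1.47-fold and that of Atp6ap2 1.40-fold higher in the Nullscript-labelled channel, while Agtr1b and Bdkrb1 were higher there by 1.10-fold and 1.08-fold. Agt, Ace and Bdkrb2 had no probe that passed the test, nor did the second probes of Ren1 and Agtr1a pass. Which drug was really in which channel is not settled. H1f0, Gsn and Cdkn1a, which usually rise with deacetylase inhibitors, had log2 ratios of -1.00, -1.04 and -0.91 (labelled Scriptaid over labelled Nullscript), and Ccnd1 and Myc, which usually fall, had 1.90 and 1.71. Of 6 genes listed as rising, 6 were higher in the Nullscript-labelled channel. Of 6 listed as falling, 5 were higher in the Scriptaid-labelled channel and 1 did not pass. With each gene of the array taken by its brightest probe, 23.2% were higher in the Nullscript-labelled channel and 22.2% in the Scriptaid-labelled channel. Both lists were chosen with earlier results of these data known, so their counts are no independent check of the labels. The study is known for reporting that regulators of nephron progenitors fell under deacetylase inhibition, which is opposite to the labels here, where Wt1 had 0.97. Were the drugs exchanged, all signs given here would turn. Agtr2 and the first Ren1 probe would then be lower with Scriptaid, and the first Agtr1a probe and Atp6ap2 higher.

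The 9 genes as a set passed the test about as often as the rest of the array. A probe passed at an adjusted p under 0.05 in limma, with adjustment over the 39408 probes tested. By this rule 17820 probes passed, which is 45.2% of the array, against 6 of the 13 probes of the set (46.2%). Of these 6, 2 were higher in the Scriptaid-labelled channel (23.5% over the array) and 4 in the Nullscript-labelled channel (21.8% over the array). The ratio had the same sign on all 6 arrays for 6 of the 13 probes, against 43.4% of all probes. The median absolute log2 ratio was 0.11 for the 13 probes and also 0.11 for all probes. The median log2 ratio was -0.03 for the 13 and 0.00 for all. The share of spots well above background lay between 91.5% and 96.5% per channel. In RNA of whole rudiments, fewer cells of a type and less transcript per cell cannot be told apart.

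**Figure D1:**
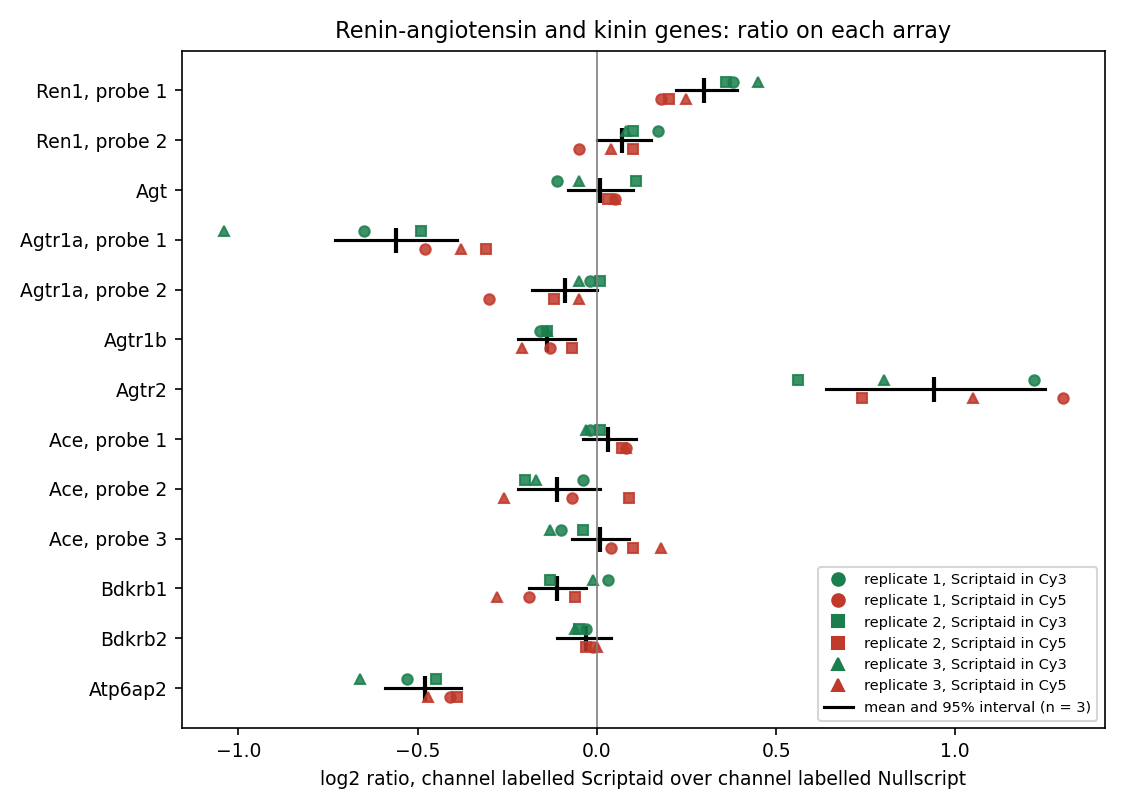
Log2 ratio of the Scriptaid-labelled channel over the Nullscript-labelled channel for each of the 13 probes. Symbols are the 6 arrays (colour for the dye of Scriptaid, shape for the replicate), and the black bar is the mean of 3 replicates with its 95% interval. Agtr2 lies furthest to the right with all arrays between 0.56 and 1.30, the first probes of Agtr1a and Atp6ap2 lie to the left on every array, and the Ace, Agt and Bdkrb2 probes lie around 0.

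Promoter sequence was available for 7 of the 9 genes in the RefSeq table for GRCm38.p6, which gives 8 windows because Ace has 2 starts, and Agtr1a and Bdkrb1 had no entry. The windows of 4 genes with a probe that passed are shown, 250 bases up to the transcription start, to set the sequence beside genes that moved in different directions. Capitals mark matches to short motifs that were searched on both strands, so that a match on the other strand appears as its reverse complement. One form of the TATA box was searched as TATAAA. Its other form was searched as TATATA. The CCAAT box was searched by that name and the GC box as GGGCGG. Part of the cAMP response element was searched as TGACGT. The last motif was TAATAAAT, and overlapping matches were kept. Agtr2 lies at chrX:21484374-21484623 on the plus strand, Ren1 at chr1:133350424-133350673 on the plus strand, Atp6ap2 at chrX:12587509-12587758 on the plus strand and Agtr1b at chr3:20367178-20367427 on the minus strand.
Agtr2: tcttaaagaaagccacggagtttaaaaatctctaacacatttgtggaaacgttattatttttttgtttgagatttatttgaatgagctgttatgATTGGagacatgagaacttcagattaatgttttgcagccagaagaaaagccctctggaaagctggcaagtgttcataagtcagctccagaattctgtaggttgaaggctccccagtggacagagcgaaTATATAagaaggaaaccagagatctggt
Ren1: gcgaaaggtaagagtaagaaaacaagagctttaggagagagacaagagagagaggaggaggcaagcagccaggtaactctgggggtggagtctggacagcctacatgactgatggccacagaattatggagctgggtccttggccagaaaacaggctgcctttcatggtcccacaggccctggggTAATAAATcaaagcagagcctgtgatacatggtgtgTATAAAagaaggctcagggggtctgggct
Atp6ap2: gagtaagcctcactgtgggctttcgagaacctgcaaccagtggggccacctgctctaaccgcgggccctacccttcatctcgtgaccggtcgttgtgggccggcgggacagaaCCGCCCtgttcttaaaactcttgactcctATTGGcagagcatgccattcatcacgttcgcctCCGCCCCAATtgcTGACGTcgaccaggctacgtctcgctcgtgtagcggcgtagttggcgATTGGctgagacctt
Agtr1b: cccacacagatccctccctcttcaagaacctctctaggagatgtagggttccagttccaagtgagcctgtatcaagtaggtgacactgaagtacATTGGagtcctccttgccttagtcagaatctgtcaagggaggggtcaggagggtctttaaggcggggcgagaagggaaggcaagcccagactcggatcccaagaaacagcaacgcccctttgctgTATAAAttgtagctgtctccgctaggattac

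The Agtr2 window held 3 CpG dinucleotides, a TATATA that began 28 bases before the start, and a CCAAT on the other strand. The Ren1 window held 1 CpG, TATAAA at 29 bases, and TAATAAAT at 65 bases, letters that belong to the renin promoter's binding element for HOX and PBX proteins. As that element is known from this promoter, its match there was no new result of the search. The Atp6ap2 window was of another kind, with 20 CpG dinucleotides, 2 GC boxes, 3 CCAAT, 1 TGACGT and neither TATA sequence. The Agtr1b window held 5 CpG dinucleotides, TATAAA at 31 bases and 1 CCAAT. Among all 32851 windows of the table the median was 6 CpG dinucleotides. TATAAA occurred in 12.4% of them, TATATA in 5.25%, CCAAT in 33.8%, GGGCGG in 32.7%, TGACGT in 6.47% and TAATAAAT in 1.31%. The genes higher in the Scriptaid-labelled channel and Agtr1b, higher in the other channel, thus all had a TATA sequence near the start. The Agt window and 1 of the Ace windows, of genes that did not pass, also held TATAAA, at 30 bases and, on the other strand, at 31 bases. A match describes letters in a window and nothing of what binds there.

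Among the substrate and the enzymes, the first Ren1 probe passed and the Agt and Ace probes did not. Its processed intensities, after Agilent's own background and dye correction, in the Scriptaid-labelled channel were 1419 and 1627 in replicate 1, 3730 and 3849 in replicate 2, and 2019 and 1430 in replicate 3, with the array carrying Scriptaid in Cy3 first. In the Nullscript-labelled channel they were 1047 and 1413, 2845 and 3351, and 1463 and 1157. Within each array the Scriptaid-labelled channel was the brighter of the pair, although the channels overlapped over arrays. Replicate 2 was bright in both. After loess normalisation the log2 ratios were 0.38 and 0.18, 0.36 and 0.20, and 0.45 and 0.25, so the arrays with Scriptaid in Cy3 gave the higher value in each replicate. The mean over replicates was 0.30 ± 0.04 (SD, n = 3), with a 95% interval from 0.22 to 0.39 and a limma adjusted p of 0.00160.

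The second Ren1 probe gave a smaller value that did not pass. Its processed intensities lay between 455 and 584 in the Scriptaid-labelled channel and between 441 and 552 in the other, so the channels overlapped almost fully. Its log2 ratio was 0.07 ± 0.03 (SD, n = 3), with a limma adjusted p of 0.112 and array values from -0.05 to 0.17. The difference between the Ren1 probes was not tested. Ren2 is a near-identical duplicate of Ren1 that some mouse strains carry and others lack, and probes for either may bind both transcripts. The Ren2 probe had a log2 ratio of 0.31 ± 0.02 (SD, n = 3; limma adjusted p = 0.00111), close in value to the first Ren1 probe. Ren1 and Ren2 signals are therefore given as uncertain between the copies.

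Agt, whose product is the substrate of renin, was dim. Its processed intensities were between 123 and 196 in the Scriptaid-labelled channel and between 139 and 191 in the Nullscript-labelled channel. The arrays scattered to both sides of 0, from -0.11 to 0.11. The mean was 0.01 ± 0.05 (SD, n = 3), with a 95% interval from -0.08 to 0.10 and a limma adjusted p of 0.783.

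Ace was measured by 3 probes, none of which passed. The brightest had processed intensities from 2397 to 3296 in the Scriptaid-labelled channel and from 2384 to 3309 in the other. Its log2 ratio was 0.03 ± 0.01 (SD, n = 3; limma adjusted p = 0.411), with a 95% interval from -0.04 to 0.11. The channels of each array thus lay within a few percent of each other. The second probe had -0.11 ± 0.09 (SD, n = 3; limma adjusted p = 0.115), with values from -0.26 to 0.09. The dimmest probe, with processed intensities between 37 and 149, had 0.01 ± 0.03 (SD, n = 3; limma adjusted p = 0.888). On that probe the 3 arrays with Scriptaid in Cy3 were all below 0 and the 3 with Scriptaid in Cy5 all above. With median centring in place of loess, the second and the dimmest Ace probe passed at -0.15 and -0.20 (limma adjusted p = 0.0384 and 0.0377).

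Agtr2 was the member furthest from equal levels. In the Scriptaid-labelled channel its processed intensities were 7955 and 13041 in replicate 1, 4601 and 6003 in replicate 2, and 8424 and 6073 in replicate 3. In the Nullscript-labelled channel they were 3681 and 4966, 3290 and 3472, and 4997 and 2781. The Scriptaid-labelled channel was brighter on 6 of 6 arrays, and the channels overlapped over arrays only in that the lowest value of one, in replicate 2, lay under the highest values of the other. The log2 ratios were 1.22 and 1.30, 0.56 and 0.74, and 0.80 and 1.05, which put replicate 1 highest and replicate 2 lowest in both dye orientations. Their mean was 0.94 ± 0.30 (SD, n = 3), with a 95% interval from 0.64 to 1.25 and a limma adjusted p of 0.00275. A ratio as high or higher was found for 732 probes, 1.86% of those tested. The order of the replicates was not particular to Agtr2. Emcn (1.24, 0.76 and 1.05 in replicates 1, 2 and 3) and Mme (0.88, 0.48 and 0.67) shared it. Pdgfrb, at 0.38, 0.71 and 0.65, did not. The genes whose called probes followed Agtr2 most closely over the 6 arrays were Igsf5 (Euclidean distance of the log2 ratios 0.181, mean 0.97 ± 0.29), Itga8 (0.193, mean 0.97 ± 0.24) and Zfp644 (0.194, mean 0.90 ± 0.29). Itga8 is the integrin subunit of the metanephric mesenchyme that is needed for the ureteric bud to enter it, and Igsf5 is a junctional adhesion molecule.

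**Figure D2:**
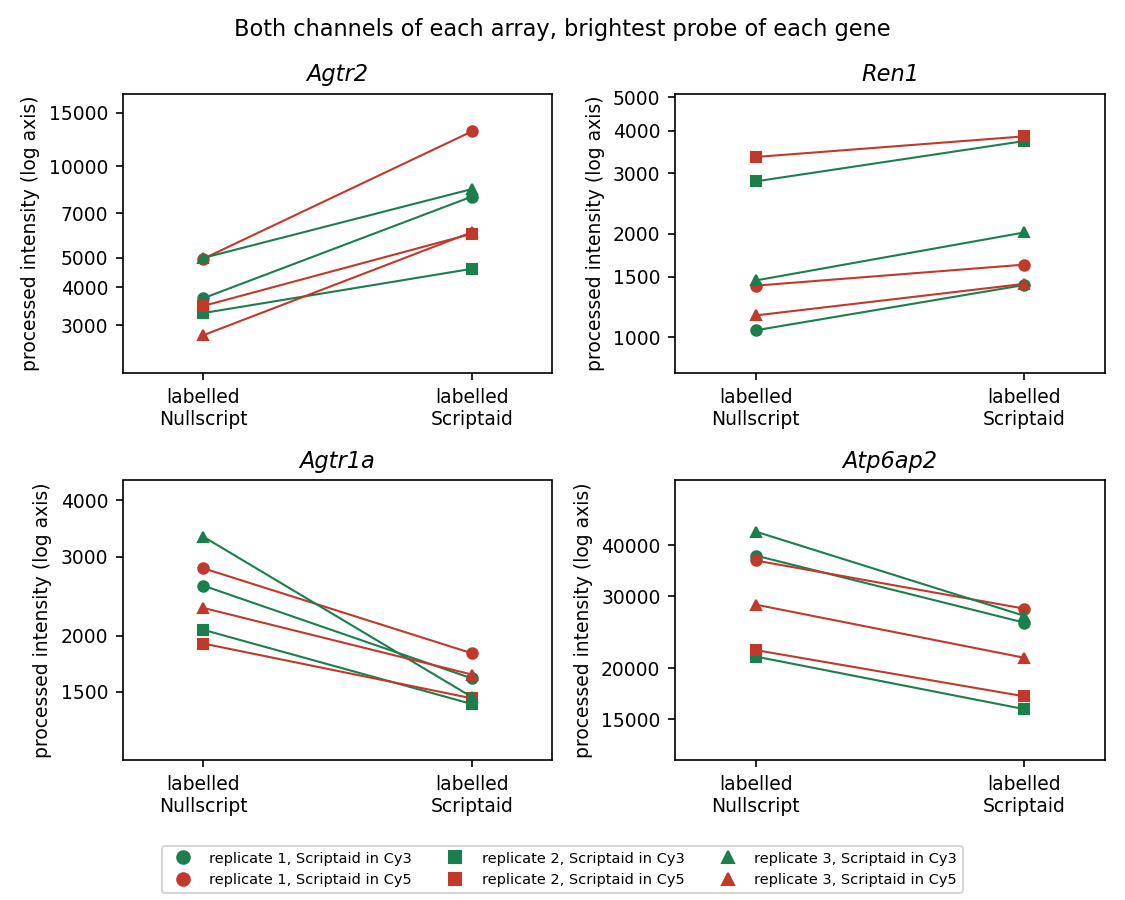
Processed intensity of the brightest probe of Agtr2, Ren1, Agtr1a and Atp6ap2 in both channels of each of the 6 arrays, on log axes, with a line joining the channels of an array (colour for the dye of Scriptaid, shape for the replicate). All lines rise from Nullscript to Scriptaid for Agtr2 and Ren1 and fall for Agtr1a and Atp6ap2, and both channels of replicate 2 stand above the other arrays for Ren1.

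Of the genes for the AT1 receptor, Agtr1a lay on the other side by its first probe and Agtr1b by a small amount. For the first Agtr1a probe the processed intensities in the Scriptaid-labelled channel were 1607 and 1828 in replicate 1, 1409 and 1451 in replicate 2, and 1461 and 1639 in replicate 3. In the Nullscript-labelled channel they were 2585 and 2825, 2061 and 1921, and 3322 and 2306. The lowest value labelled Nullscript, 1921, was a little above the highest labelled Scriptaid, 1828. How many probes of the array had channels apart in this way was not counted. The log2 ratios were -0.65 and -0.48, -0.49 and -0.31, and -1.04 and -0.38, with the value of -1.04 on 1 array of replicate 3 well below the others. The mean was -0.56 ± 0.15 (SD, n = 3), with a 95% interval from -0.73 to -0.39 and a limma adjusted p of 0.00214.

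The second Agtr1a probe did not pass, with -0.09 ± 0.06 (SD, n = 3; limma adjusted p = 0.110). Its processed intensities were 804 to 1109 in the Scriptaid-labelled channel and 898 to 1229 in the other, so they overlapped. The arrays ran from -0.30 to 0.01. The 95% interval of this probe, from -0.18 to 0.00, did not reach that of the first, and the difference between the probes was not tested. Which parts of the transcript the probes match was not analysed here.

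Agtr1b was lower in the Scriptaid-labelled channel by a small amount on every array. The processed intensities were 345 to 759 in the Scriptaid-labelled channel and 431 to 802 in the other. These ranges overlapped because arrays differed more than channels did. The log2 ratios lay between -0.21 and -0.07, with a mean of -0.14 ± 0.04 (SD, n = 3; limma adjusted p = 0.0183). The call was lost without replicate 3, at -0.12 (limma adjusted p = 0.135), with the slide as a block, at -0.15 (limma adjusted p = 0.0563), and with Scriptaid in Cy5 alone, at -0.14 (limma adjusted p = 0.0709). Replicates 1 and 2 shared a slide, and replicate 3 alone, on the other, had -0.18.

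Atp6ap2 makes the (pro)renin receptor, a membrane protein that binds renin and prorenin and is also an accessory subunit of the vacuolar proton pump. Its processed intensities in the Scriptaid-labelled channel were 25859 and 27981 in replicate 1, 15884 and 17071 in replicate 2, and 26876 and 21215 in replicate 3. In the Nullscript-labelled channel they were 37737 and 36705, 21362 and 22154, and 43198 and 28622. Each array was brighter in the Nullscript-labelled channel, while over arrays the channels overlapped, as replicate 2 was dimmer in both. The log2 ratios were -0.53 and -0.41, -0.45 and -0.39, and -0.66 and -0.47. The mean was -0.48 ± 0.08 (SD, n = 3), with a 95% interval from -0.59 to -0.38 and a limma adjusted p of 0.000798, the lowest among the 13 probes.

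The bradykinin receptors differed little between the channels. Bdkrb1 had processed intensities from 4919 to 7402 in the Scriptaid-labelled channel and from 5128 to 7508 in the other. Its log2 ratios were 0.03 and -0.19, -0.13 and -0.06, and -0.01 and -0.28, so that the arrays of replicates 1 and 3 differed by more than the mean. The mean was -0.11 ± 0.03 (SD, n = 3), with a limma adjusted p of 0.0433. It missed the threshold when any replicate was left out (limma adjusted p from 0.0709 to 0.247), with the replicate block (0.0681), with the slide as a block (0.0957) and with Agilent's processed signals (0.107). Its value was -0.02 with median centring (limma adjusted p = 0.620) and -0.04 with Scriptaid in Cy3 alone (limma adjusted p = 0.614). Bdkrb2, the receptor for bradykinin itself, had -0.03 ± 0.01 (SD, n = 3; limma adjusted p = 0.432). Its arrays lay between -0.06 and 0.00, and its processed intensities from 1925 to 2551 in the Scriptaid-labelled channel overlapped with 2013 to 2697 in the other.

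A difference between the dye orientations was tested over all 6 arrays, the replicate being the block. No probe of the 9 genes passed in limma, with a lowest adjusted p of 0.100 and 3 probes at an unadjusted p under 0.05. Over the array 3.82% of the probes passed this test, so 0 of 13 is near the background. The first Ren1 probe had 0.40 with Scriptaid in Cy3 and 0.21 with Scriptaid in Cy5 (limma adjusted p = 0.100). The first Agtr1a probe had -0.73 and -0.39 (limma adjusted p = 0.176), and Agtr2 had 0.86 and 1.03 (limma adjusted p = 0.587). The signs were alike in both orientations for these 3 probes.

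The brightness of the renin probes differed more between replicates than between the drugs. As a level relative to the array median and over both channels, the first Ren1 probe stood at -0.08 in replicate 1, 1.57 in replicate 2 and 0.12 in replicate 3 on the log2 scale. Replicate 2 was thus 2.92-fold above the mean of the other replicates, a step reached or passed by 0.137% of the probes tested. The second Ren1 probe was 1.37-fold and the Ren2 probe 3.17-fold higher in replicate 2. No other probe of the 9 genes was more than 1.56-fold higher there, and Agtr2 and Atp6ap2 were at 0.876-fold and 0.758-fold. The step of the Ren1 level did not go with its drug ratio, which was 0.28, 0.28 and 0.35 in replicates 1, 2 and 3. These levels are 1 value per replicate and were not tested.

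**Figure D3:**
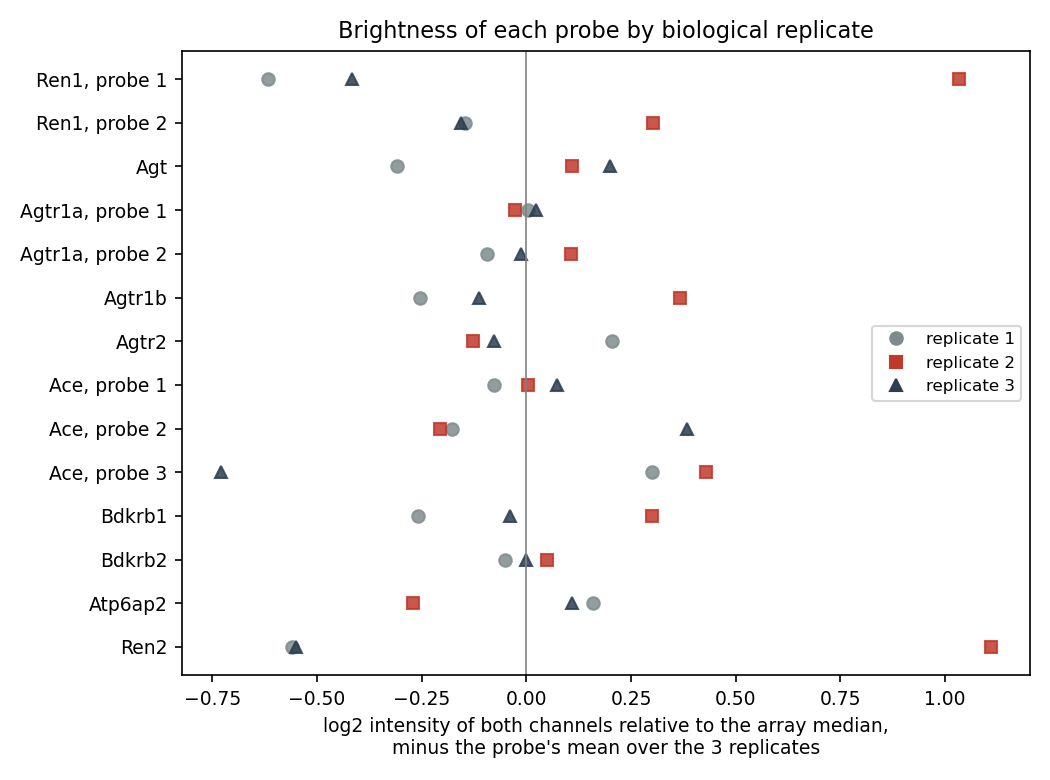
Brightness of each probe in each biological replicate: the log2 processed intensity relative to the array median, averaged over both channels and both arrays of a replicate, minus the probe's mean over the 3 replicates. The first Ren1 probe and the Ren2 probe stand apart in replicate 2, 2.92-fold and 3.17-fold above the other replicates.

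The rest of the pathway was followed through 4 lists of other genes, each gene by its brightest probe. Of 44 genes measured, 21 were higher in the Scriptaid-labelled channel, 7 were higher in the Nullscript-labelled channel and 16 did not pass, with a median log2 ratio of 0.08. Over the 26500 genes of the array taken the same way, 22.2% were higher in the Scriptaid-labelled channel and 23.2% in the Nullscript-labelled channel, with a median of -0.01. The lists differed among themselves in these counts, from the substrates and proteases, where most did not pass, to the renin cell genes, where all did.

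Of 10 substrates and proteases measured, 2 were higher in the Scriptaid-labelled channel, 2 in the Nullscript-labelled channel and 6 did not pass (median 0.02). Leaving out any replicate left 1 in each direction. Ren2, described above, was one of the former. Thop1, a metallopeptidase that turns angiotensin I into angiotensin 1-7, was the furthest in the other direction, with -0.74 ± 0.02 (SD, n = 3; limma adjusted p = 0.000218). Kng1, which makes the kinin precursor, was not measured, and Kng2 was well above background on only 3 and 2 of the 6 arrays in the channels labelled Scriptaid and Nullscript.

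Of 11 peptidases that trim angiotensins or kinins, 5 were higher in the Scriptaid-labelled channel, 1 was higher in the Nullscript-labelled channel and 5 did not pass (median 0.00). Without replicate 3 the number higher in the Scriptaid-labelled channel was 3, and with the replicate block 3 were higher in the Nullscript-labelled channel. Mme, which encodes neprilysin, a membrane peptidase that degrades bradykinin and forms angiotensin 1-7, had 0.68 ± 0.20 (SD, n = 3; limma adjusted p = 0.00224), and its other probe had 0.66. Cpm, a membrane carboxypeptidase that clips bradykinin into a B1 receptor ligand, had -1.58 ± 0.20 (SD, n = 3; limma adjusted p = 0.000283), but another Cpm probe had -0.23. The aminopeptidases Enpep and Rnpep, named after their values were seen, had 0.62 and 0.66. Among other aminopeptidases of the list, Anpep (-0.12), Lnpep (0.00) and Xpnpep1 (-0.22) did not pass, and Xpnpep2 (0.41) did. Enpep converts angiotensin II to angiotensin III. Enpep missed the threshold without replicate 3, at 0.57 (limma adjusted p = 0.0585).

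Of 11 receptors, partners and effectors measured, 4 were higher in the Scriptaid-labelled channel, 2 in the Nullscript-labelled channel and 5 did not pass (median 0.06). Mtus1, whose product binds the AT2 receptor, had -0.63 ± 0.14 (SD, n = 3; limma adjusted p = 0.00114), opposite in sign to Agtr2. Its 3 other probes ran from -0.34 to -0.02. Arrb2, the β-arrestin that AT1 receptors recruit, had -0.57 ± 0.04 (SD, n = 3; limma adjusted p = 0.000333), the same sign as Agtr1a.

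Of 12 genes of the renin cell lineage and its regulators, 10 were higher in the Scriptaid-labelled channel, as the first Ren1 probe was. In the Nullscript-labelled channel 2 were higher, or 1 without replicate 2 or 3, and the list's median was 0.56. Over all genes by brightest probe the shares were 22.2% and 23.2%. This list too was chosen with earlier results of these data known, so its count is no independent support for the Ren1 value. Crebbp, a coactivator of renin transcription, had 1.01 ± 0.11 (SD, n = 3; limma adjusted p = 0.000272), though its 2 other probes lay at 0.05 and 0.20. Other probes of Gja5 (brightest 0.66) ran from -0.03 to -0.02, of Ep300 (0.69) from 0.04 to 0.09 and of Gnas (0.56) from -0.18 to 0.52. Those of Foxd1 (0.55), Creb1 (0.28 to 0.33) and Tbx18 (0.68) lay near their brightest probes (0.56, 0.35 and 0.66). Gja4, a vascular connexin, had 0.89 ± 0.31 (SD, n = 3; limma adjusted p = 0.00356). Several genes of this list are also expressed outside renin cells, and Foxd1, the transcription factor of their stromal ancestors, is also on the stroma list below.

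**Figure D4:**
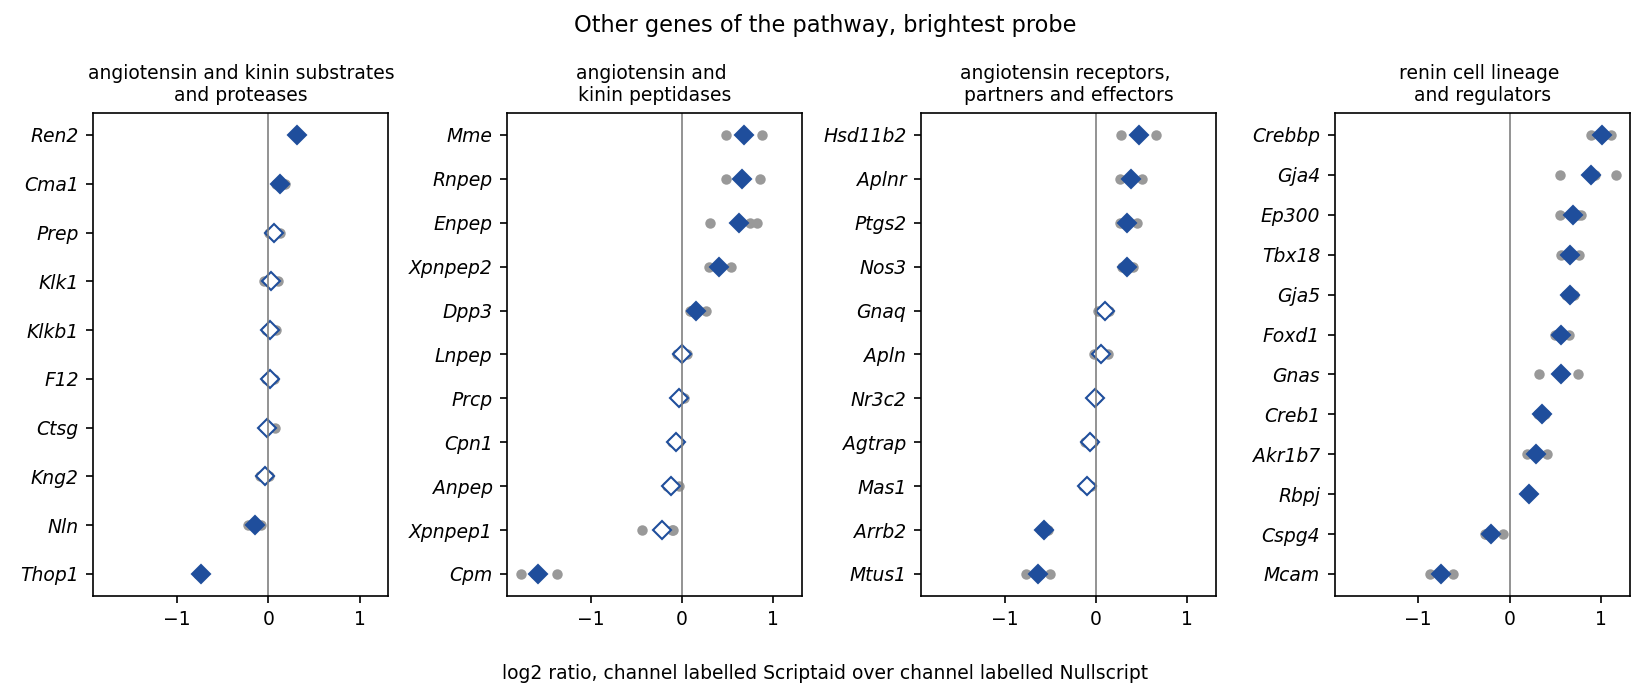
Log2 ratio of the Scriptaid-labelled channel over the Nullscript-labelled channel for the other pathway genes in 4 lists, by the brightest probe. Grey points are the 3 replicates and diamonds their mean, filled where limma's adjusted p was under 0.05. The renin cell list has 10 filled diamonds to the right and 2 to the left, and Cpm at -1.58 lies furthest to the left.

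Markers of the cell types that make or receive these signals also differed between the channels. Of 8 nephron progenitor markers 7 were higher in the Scriptaid-labelled channel and 1 did not pass (median 0.39), and of 8 stroma markers 6 were higher, 1 was lower and 1 did not pass (median 0.48). Of 8 endothelial markers 6 were higher there, 1 was lower and 1 did not pass (median 0.74), with Emcn at 1.02 ± 0.24. Over all genes by brightest probe, 22.2% were higher there and 23.2% lower. Other probes were nearer to 0 for Eya1 (0.48 against 1.64), Pecam1 (0.00 against 0.66), Kdr (0.03 against 0.26) and Pdgfra (0.12 against 0.86). The same held for Col3a1 (0.07 to 0.11 against 0.39) and Col1a1 (-0.12 to 0.02 against -0.31). Other probes were higher for Tek (0.48 against 0.03) and Osr1 (0.83 against 0.10). They were close for Cdh5 (0.80 against 0.95) and Meis1 (0.30 against 0.33). The processed intensities of a list's markers were summed within each array. Over the 6 arrays this sum ran from 70920 to 115300 (labelled Scriptaid) and 38177 to 54219 (labelled Nullscript) for nephron progenitors. For stroma it ran from 318678 to 460463 and 283630 to 476601, and for endothelium from 69365 to 107551 and 51885 to 71867. The Scriptaid-labelled sum was the higher on 6 of 6 arrays for nephron progenitors and endothelium, and on 5 of 6 for stroma. All markers of these 3 lists were well above background on 6 arrays in both channels, as were 91.5% to 96.5% of all spots in a single channel. Agtr2, which mesenchymal cells express, and Ren1 thus moved in the same direction as most of these markers by brightest probe. The part of such cells in the Agtr2 and Ren1 ratios was not tested.

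Markers of vascular smooth muscle and pericytes, where renin cells and AT1 receptors are found, were divided. Of 8, 1 was higher in the Scriptaid-labelled channel, 3 in the Nullscript-labelled channel and 4 did not pass (median -0.03), with sums of 113107 to 150347 and 104195 to 160737, and the one that was higher, Pdgfrb, had 0.58 ± 0.18. Of 8 ureteric bud markers 4 were higher in the Scriptaid-labelled channel, 1 was lower and 3 did not pass (median 0.18; sums 88145 to 130986 and 74178 to 110844), with Calb1 at 0.36 ± 0.05. Of 8 macrophage markers 4 were higher there, 1 was lower and 3 did not pass (median 0.17; sums 16202 to 22827 and 12544 to 17926), with Lyz2 at 0.89 ± 0.07 and another Lyz2 probe at 0.18. Ptprc had 1.07, but its 3 other probes ran from -0.11 to 0.15. The macrophage marker that was lower did not pass without replicate 2 or 3. Neighbouring tissue makes some of the same genes, Agt in the liver and Ren1 in the adrenal. Of 7 adrenal and gonad markers 1, Star at -0.17 ± 0.02, was lower in the Scriptaid-labelled channel and 6 did not pass (median -0.04; sums 19676 to 23764 and 19503 to 24704). Of 7 liver markers 1, Afp at -0.20 ± 0.06, was lower there and 6 did not pass (median 0.00; sums 2149 to 3829 and 2367 to 4124). The adrenal and gonad markers were well above background on every array, as were all the liver markers but Ttr. Between 91.5% and 96.5% of all spots per channel were so too, so this mark does not set these markers apart. Without replicate 3 neither Star (-0.16; limma adjusted p = 0.0780) nor Afp (-0.20; limma adjusted p = 0.0691) passed, and Afp had -0.10 with Scriptaid in Cy5 alone (limma adjusted p = 0.197). What cells of these tissues added to the Ren1 and Agt levels was not tested. Col1a1, the brightest stroma marker that passed, had -0.31 ± 0.15 and was saturated on 3 of 6 arrays, and it had 0.08 without saturated spots (limma adjusted p = 0.181) and -0.32 without replicate 3 (limma adjusted p = 0.0728).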

How the data were processed

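Expression was measured on 6 two-colour Agilent 4x44k arrays, grouped by the dye of Scriptaid in the dye fields. The deposited scanner files hold a spot and a background intensity per channel, written by Agilent Feature Extraction 9.1.3.1 per the file headers. Beside them stand processed intensities, corrected by that software for background and dye, and a deposited log10 ratio with Cy5 as numerator. The authors' deposited value table holds the same log10 ratios turned to labelled Scriptaid over labelled Nullscript, within 4.82e-06, uncentred (column medians -0.00506, -0.00959, -0.00136, -0.00261, -0.00831 and -0.00499).

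Mean intensities were corrected with normexp (offset 50) and loess-normalised within arrays in limma 3.58.1 under R 4.3.3. Control spots had weight 0, outlier spots were left out and saturated spots were kept. Each of 41174 probes kept a value of its own, and 39408 were tested, those well above background for either drug on 3 or more of the 6 arrays. Probes took current names by accession (22951), current symbol (6659) or older symbol (3109), and 8455 kept the file's name. The ratios of a replicate's 2 arrays were averaged, and lmFit and eBayes set the mean of 3 replicates against 0, with Benjamini-Hochberg adjustment over all probes tested. The labels make the 2 arrays of a replicate the same biological replicate. Their deviations from the orientation mean correlated at 0.61, 0.13 and 0.01, against -0.42 to 0.26 between replicates. The fit was tested on simulated ratios in which few probes changed. Background correction and loess were not part of that test, nor was a share of changed probes as large as here. The 95% intervals come from the fit.

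Named were all probes of the 9 genes, the 2 passing genes of largest ratio in each pathway list, the brightest that passed in each marker list, 5 drug response genes, and the 3 genes nearest to Agtr2. The genes and lists were chosen with earlier results of these data known. One gene of the peptidase list is not reported here and is in none of its counts. Alternatives covered background, normalisation, filters, value table, replicate block, slide, dye orientation, each replicate left out and 1 probe per gene.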

Additional observations from a re-analysis of the deposited data

How the results depend on the processing

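In all 17 alternatives, Agtr2 (0.79 to 1.09), the first probes of Ren1 (0.21 to 0.40) and Agtr1a (-0.73 to -0.39) and Atp6ap2 (-0.55 to -0.38) kept their sign and passed. Agtr1b lost its call in 3 of 17 and Bdkrb1 in 9 of 17. In the fit of 6 arrays with a dye term and the replicate block, 18846 probes and 5 probes of the 9 genes passed, Bdkrb1 being lost. With the slide as a block, 2 of the 9 genes' probes and 6534 over the array were higher in the Nullscript-labelled channel (14221 called in all). Without each replicate in turn this number was 2 to 3, and over the array 11640 to 16393 probes passed, 5316 to 7781 of them higher in that channel. With 1 probe per gene, 6018 were higher in the Scriptaid-labelled channel. Median centring without loess gave 8 of the 13 probes a difference between dye orientations, called 9307 and 11635 probes, and put 44.4% of calls, against 51.9%, higher in the Scriptaid-labelled channel. Signs turned for values that had not passed. Agt had -0.13 with median centring, -0.02 with Scriptaid in Cy3 alone and -0.02 to 0.04 without 1 replicate. The brightest Ace probe had -0.02 with processed signals or the value table and -0.01 with Scriptaid in Cy3 alone. The dimmest had -0.20 with median centring, -0.09 with Scriptaid in Cy3 alone and 0.00 to 0.03 without 1 replicate. Bdkrb2 had 0.00 with median centring, and Col1a1, which had passed, had 0.08 without saturated spots. The cause was not tested. The number of arrays limits the precision.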

Other observations

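The replicate with the bright renin probes also had more Afp, the fetal liver protein, at 3.18-fold over the mean of the other replicates. Afp had the largest step on the liver list, 1.67 on the log2 scale. The list's median step was 0.03 and its lowest -0.27, so the list as a whole did not share the step of Afp. The adrenal and gonad list had a median step of 0.13 and a range from 0.04 to 0.47. The renin cell list had -0.07 (from -0.45 to 0.48), vascular smooth muscle and pericytes -0.11 (from -0.27 to 0.38), and macrophages 0.11 (from -0.01 to 0.68). The Ren2 probe had processed intensities of 1520 and 1458 in the Scriptaid-labelled channel of replicate 2, against 482 to 657 in the other replicates. These are values of 1 replicate against the others and were not tested.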
